A study of Mus musculus with 10 samples.

Results

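The open reading frames (ORFs) of at least 100 nt on RNAs that GENCODE M21 types as processed transcript or antisense were followed in ribosome footprints of mouse embryonic stem cells. Members were chosen by the gene type of the listed transcript and by ORF length, without Gas5 and the Snhg RNAs. They came to 5694 ORFs on 286 RNAs, of 75579 listed ORFs on 15269 transcripts. Of the RNAs, 177 with 3581 ORFs were processed transcripts and 109 with 2113 ORFs were antisense RNAs. CGR8 cells, a feeder-free embryonic stem cell line of strain 129, were untreated, or treated with 1 µM DMDA-PatA for 10 min, with 2 µg/ml harringtonine for 10 min or with 0.2 mg/ml puromycin for 20 min, and all groups received the same amount of DMSO. Each group had 2 ribosome profiling libraries, made after RNase I digestion of lysates that contained cycloheximide, and 2 further libraries held whole transcriptome reads of control cells. The study calls the libraries of a group biological replicates without saying whether they were separate cultures, so p-values measure the spread between these libraries, which may be technical.

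Processed transcripts and antisense RNAs are RNA polymerase II products for which the annotation names no coding sequence. Antisense RNAs overlap a gene of the other strand, and some processed transcripts host small nucleolar RNAs or microRNAs that are cut out of them. A ribosome protects a short RNA fragment from RNase, and so can a stable RNA structure or another protein. DMDA-PatA, an analog of pateamine A, targets the initiation helicase eIF4A. Harringtonine blocks ribosomes in the first rounds of elongation, so that they gather near start sites, and puromycin ends the growing chain and releases it.

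The ORFs were listed exhaustively and overlap each other. An RNA carried a median of 17 of them and at most 182, and they ended at 2570 distinct stop codons. Their length ran from 102 to 3675 nt, with a median of 156 nt. Of the ORFs, 1775 (31.2%) started with AUG and 3361 (59.0%) with CUG, and the start of 558 was not located because the M21 model of their 22 RNAs did not match the listed positions. Nested ORFs share their reads, so 1 ORF per RNA, the one with the most reads over the 8 ribosome profiling libraries, was taken as its lead ORF. This sum includes the drug libraries, so the choice favours ORFs with many reads under a drug, and with them rises. Of the located lead ORFs, 113 started with AUG and 151 with CUG. Their median length was 226.5 nt, with a median of 191 bases of RNA before them.

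The lead ORFs that carry the main contrasts are shown as listed, 5′ to 3′ on the RNA's own strand and without the stop codon that follows, with the start codon in capitals. The first, from 2410006H16Rik, was the standalone ORF with the most reads, and 2010204K13Rik had the largest DMDA-PatA effect among well covered standalone ORFs. The ORFs of 1110038B12Rik and 4933407K13Rik were higher under harringtonine and puromycin, and that of Gm17435 had no read under DMDA-PatA.
2410006H16Rik (chr11:62602890-62603021, + strand): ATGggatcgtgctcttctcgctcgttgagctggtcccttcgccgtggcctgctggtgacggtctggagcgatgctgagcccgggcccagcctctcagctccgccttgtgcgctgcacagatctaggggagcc
2010204K13Rik (chrX:7412216-7412515, − strand): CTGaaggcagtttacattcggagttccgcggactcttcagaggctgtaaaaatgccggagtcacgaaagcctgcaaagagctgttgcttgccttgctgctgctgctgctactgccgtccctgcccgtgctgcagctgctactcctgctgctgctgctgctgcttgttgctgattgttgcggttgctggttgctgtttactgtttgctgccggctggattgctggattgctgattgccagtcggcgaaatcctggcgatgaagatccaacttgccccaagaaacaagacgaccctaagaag
1110038B12Rik (chr17:34950846-34952396, − strand, spliced): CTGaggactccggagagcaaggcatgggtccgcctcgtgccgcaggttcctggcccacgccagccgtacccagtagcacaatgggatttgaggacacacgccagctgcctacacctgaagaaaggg
4933407K13Rik (chrX:75760388-75764644, − strand, spliced): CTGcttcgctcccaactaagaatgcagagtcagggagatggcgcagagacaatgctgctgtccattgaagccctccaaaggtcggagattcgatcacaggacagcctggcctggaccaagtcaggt
Gm17435 (chr8:72502680-72502862, + strand): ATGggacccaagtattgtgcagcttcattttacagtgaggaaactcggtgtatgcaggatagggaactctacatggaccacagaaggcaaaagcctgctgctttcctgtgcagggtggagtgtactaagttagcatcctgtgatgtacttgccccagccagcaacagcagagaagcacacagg
Positions are on GRCm38 and all lie in exons of the named RNA. The ORF of 2010204K13Rik holds repeated CTG triplets, and 32.0% of its bases are soft-masked as repeats in the genome.

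In 2 RNAs the lead ORF ran through a microRNA, and these are shown with the microRNA's seed (bases 2 to 8) also in capitals. The microRNA sequences are those of RefSeq for GRCm38.p6.
Gm13648 lead ORF (chr4:156053858-156054016, − strand): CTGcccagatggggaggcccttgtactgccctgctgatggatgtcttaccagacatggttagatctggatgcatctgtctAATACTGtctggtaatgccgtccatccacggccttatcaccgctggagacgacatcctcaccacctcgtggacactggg
mmu-miR-429-3p (chr4:156053916-156053937, − strand): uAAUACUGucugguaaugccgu
Mir22hg lead ORF (chr11:75463760-75465469, + strand, spliced): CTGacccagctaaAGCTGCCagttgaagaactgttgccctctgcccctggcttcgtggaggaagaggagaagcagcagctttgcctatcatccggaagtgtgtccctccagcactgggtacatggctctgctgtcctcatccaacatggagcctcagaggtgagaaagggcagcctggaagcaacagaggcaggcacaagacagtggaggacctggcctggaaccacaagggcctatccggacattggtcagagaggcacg
mmu-miR-22-3p (chr11:75463772-75463793, + strand): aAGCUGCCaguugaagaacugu
The mature miR-429-3p begins at base 80 of the Gm13648 ORF, and miR-22-3p at base 13 of the Mir22hg ORF.

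Overlap with coding sequence divided the RNAs. The lead ORF lay on coding sequence of the same strand in 14 RNAs, counted from M21 and RefSeq together, and only opposite coding sequence in 42. In 50 RNAs coding sequence touched the RNA outside the lead ORF, and in 13 it touched an RNA whose ORF was not located. The other 167 RNAs had no coding overlap on either strand. Of all 286 RNAs, 11 are protein coding in RefSeq, among them Cct6a, a subunit of the cytosolic chaperonin, Ifi30, a lysosomal thiol reductase, the zinc finger genes Zswim6 and Trerf1, and Ptpmt1, a mitochondrial phosphatase. M21 types these genes as processed transcripts, and their lead ORFs are the usual coding sequences or parts of them. The authors' counting is not stated to use strand, so reads of overlapping genes on opposite strands may not be told apart.

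The libraries had between 608623 and 10522777 reads on the 14300 coding sequences in ribosome profiling, lowest under DMDA-PatA, and 16534120 and 37777972 reads in the transcriptome. The lead ORFs carried 54175 reads in the 8 ribosome profiling libraries. Of these, 57.9% lay on Cct6a and 74.2% on the 3 lead ORFs with the most reads, while the median lead ORF had 6 reads. No read fell on 25 lead ORFs, and 53 had reads in all 8 libraries. Of the stem cell markers, Pou5f1 was at 345.5 and 297.3 transcriptome reads per kb, scaled to a library of equal size on coding sequences. The 5 fibroblast markers were also present, from 9.58 for Thy1 to 1279 for Col1a1, while the 4 endoderm markers did not exceed 2.5. Of the 3 neural markers, Tubb3 was at 49.5 and 41, Pax6 at 5.13 and 3.64 and Sox1 at 0.155 and 0.113. Whether cells of another type contributed to the values of the RNAs below was not tested.

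A row of the tables was tested when it had at least 10 reads in at least 2 libraries, which held for 14472 rows, among them 323 member ORFs on 50 RNAs and 48 lead ORFs. The other 238 lead ORFs were too low. An ORF low in the control passed only if it was high under a drug, which favours rises among such ORFs. Values are read numbers divided by the authors' spike-in size factor (normalized footprints), and every direction below is relative to the spike-in. Nearly all rows fell on that scale, with a median log2 fold change over the tested rows of -4.26 under DMDA-PatA, -2.96 under harringtonine and -2.46 under puromycin. With TMM scaling, which centres the rows, these medians were -0.09, -0.02 and 0.03, so a decrease smaller than the general one became an increase. Under TMM scaling 1 lead ORF was called lower and 29 higher under DMDA-PatA, 6 and 33 under harringtonine and 4 and 32 under puromycin.

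DMDA-PatA lowered the lead ORF of 31 of the 48 RNAs tested and raised it in 2 (edgeR's quasi-likelihood test, adjusted p of 0.05). Over all rows tested 96.9% were called lower and 0.359% higher. The median log2 fold change of the lead ORFs was -1.88, and 40 of the 48 lay above the median of all rows. TMM scaling gave the same number, but rescaling moves all rows nearly alike, so this is no separate support. Without control replicate 1 the number lowered was 16 and without control replicate 2 it was 20. Harringtonine lowered 21 lead ORFs and raised 5, against 89% and 1.1% of all rows. Puromycin lowered 14 and raised 3, against 85.2% and 0.85%. With the longest ORF of each RNA taken as lead instead, harringtonine raised 2 and puromycin 1. Without either control library, harringtonine lowered 10 and puromycin 6. Counted over all 323 tested member ORFs, many of them nested, 270 were lower under DMDA-PatA, 238 under harringtonine and 208 under puromycin, and 10, 19 and 6 were higher.

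**Figure D1:**
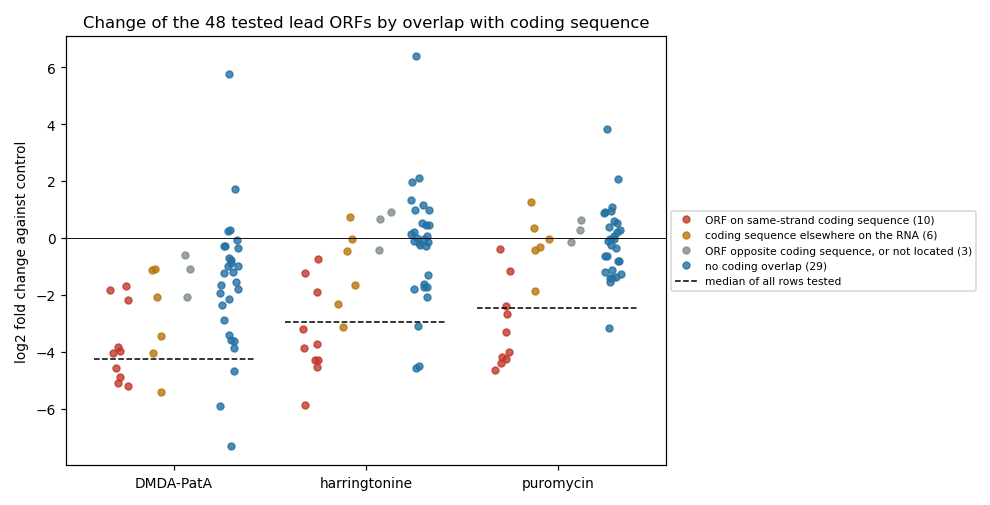
Log2 fold change against control (vertical axis) of the 48 tested lead ORFs for each drug, 1 point per ORF, coloured by overlap with coding sequence, with the median of all 14472 rows as a dashed line. The drugs share their control libraries. The 10 ORFs on same-strand coding sequence lie below 0 with every drug on the spike-in scale, while the 29 without coding overlap spread on both sides of it.

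The 10 tested lead ORFs on same-strand coding sequence all fell under DMDA-PatA, and 9 each fell under harringtonine and under puromycin, against 96.9%, 89% and 85.2% of all rows. Their median log2 fold changes were -4.01, -3.81 and -3.66 on the spike-in scale. Under TMM scaling 6 of the 10 lay above 0 for DMDA-PatA, and 3 were called higher and 1 lower. The Cct6a ORF, 1596 nt long with 1458 nt on RefSeq coding sequence in the same frame, had 15060 and 13020 normalized footprints in the control libraries, 361 and 589 under DMDA-PatA, 1202 and 704 under harringtonine and 517 and 609 under puromycin. Both control libraries stood far above all treated ones. The log2 fold change was -4.89 (SE 0.54, adjusted p = 9.23e-19 in edgeR) under DMDA-PatA, -3.88 under harringtonine and -4.64 under puromycin. Ifi30 had 1127 and 1221 normalized footprints in the control, 163.5 and 358.8 under DMDA-PatA, 279.0 and 351.4 under harringtonine and 202.7 and 246.2 under puromycin. Its decrease of 4.5 fold under DMDA-PatA (log2 fold change -2.17, adjusted p = 2.17e-06 in edgeR) was smaller than that of Cct6a, which was 29.6 fold, and under TMM scaling Ifi30 rose by 1.97 on the log2 scale (adjusted p = 1.92e-05).

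Zswim6 and Trerf1 carry the longest lead ORFs of the well covered RNAs, with 3621 and 3675 nt. Zswim6 went from 581.2 and 510.3 normalized footprints in the control to 25.2 and 40.6 under DMDA-PatA, 35.5 and 21 under harringtonine and 22.8 and 28.6 under puromycin. Trerf1 went from 186.3 and 163.2 to 5.05 and 4.06 under DMDA-PatA, 19.3 and 7.70 under harringtonine and 31.0 and 24.9 under puromycin. The control libraries stood above all treated ones in both genes, while the drugs overlapped each other in Zswim6. The 3 drugs were within 16.6 to 21.3 fold of the control for Zswim6 but between 6.25 and 38.4 fold for Trerf1. Ptpmt1 had 66 and 112 reads in the control and 2 to 5 in each treated library. Its lead ORF starts with CUG and shares 324 of its 336 nt with the Ptpmt1 coding sequence in frame, and DMDA-PatA lowered it by a log2 fold change of -5.10 (SE 0.62, adjusted p = 3.69e-16 in edgeR).

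The other 5 of these 10 also carry sequence of coding genes and were named after their values were seen. Gm20507, on Zfp414 and Pram1 coding sequence with 319 of 351 nt in frame, had a log2 fold change of -4.57 under DMDA-PatA, and Gm21986, in frame on the synaptic adhesion gene Nlgn3, had -3.96. Gm20460 lies on Ppt2 coding sequence with 222 nt, none of them in frame, and still had -3.85. Spata5l1 and Tmem134 fell less, by 1.68 and 1.82 on the log2 scale.

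**Figure D2:**
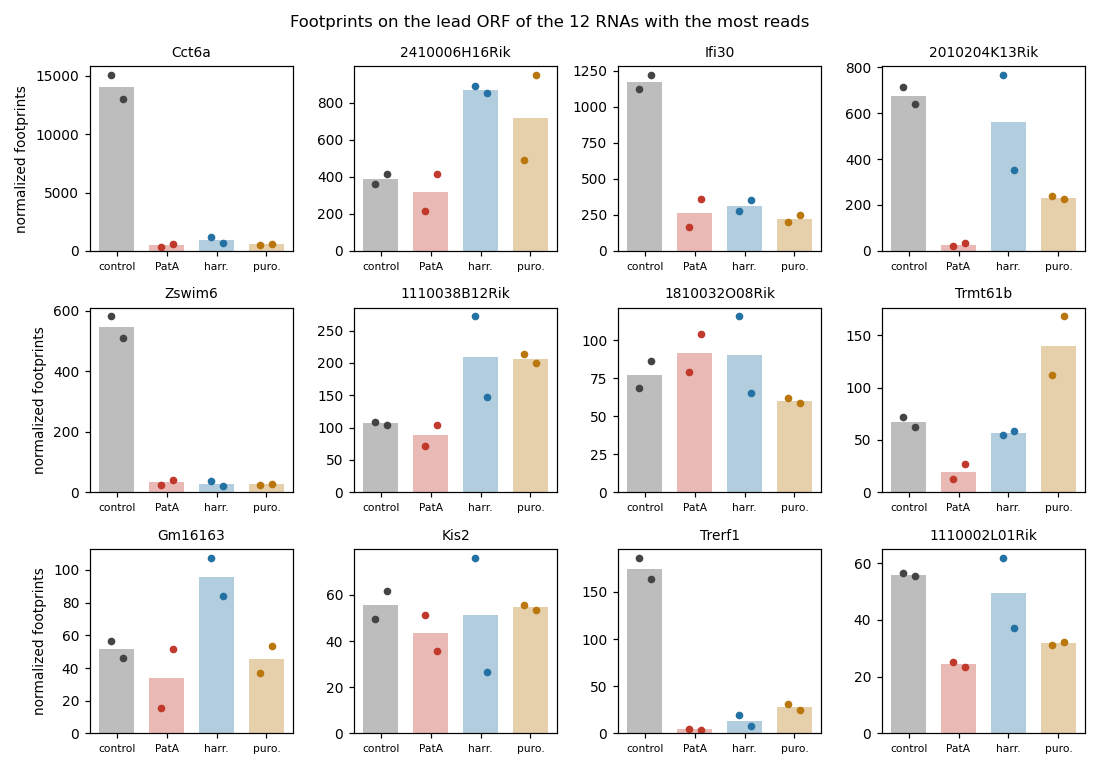
Normalized footprints (vertical axis, from 0, a scale of its own in each panel) on the lead ORF of the 12 RNAs with the most reads, for control, DMDA-PatA (PatA), harringtonine (harr.) and puromycin (puro.). Bars are means of 2 libraries and points are the libraries. Cct6a, Ifi30, Zswim6 and Trerf1 fall with all 3 drugs, 2010204K13Rik falls from 676 to 26.6 under DMDA-PatA and stays at 560 under harringtonine, and 2410006H16Rik and 1110038B12Rik are above the control under harringtonine.

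The 29 tested lead ORFs without coding overlap behaved differently from one another. DMDA-PatA lowered 16 and raised 2, harringtonine lowered 9 and raised 5, and puromycin lowered 5 and raised 3. Over all rows 96.9% were lower and 0.359% higher under DMDA-PatA, 89% and 1.1% under harringtonine and 85.2% and 0.85% under puromycin. Their median log2 fold changes were -1.24, -0.05 and -0.11. The class rests on annotated coding sequence alone and includes Ptprv, which carries ORFs of 2592 and 2205 nt, far longer than most. Its lead ORF fell with every drug, by log2 fold changes of -3.64, -4.57 and -3.17. 2010204K13Rik is a noncoding RNA from the X chromosome (RefSeq lncRNA). Its lead ORF had 714.4 and 638.2 normalized footprints in the control, 20.8 and 32.5 under DMDA-PatA, 765.0 and 354.2 under harringtonine and 239.9 and 225.1 under puromycin. Only the DMDA-PatA and puromycin libraries lay clear of the control. DMDA-PatA lowered it 25.4 fold (log2 fold change -4.67, SE 0.52, adjusted p = 7.37e-19 in edgeR) and puromycin 2.91 fold (adjusted p = 0.000841). With harringtonine the log2 fold change was -0.28 (adjusted p = 0.543). In the nested ORF from RNA base 644 to the same end, control reads were 273 and 287 and harringtonine reads 18 and 25. Harringtonine lowered that part (log2 fold change -4.02, adjusted p = 5.45e-15 in edgeR), and DMDA-PatA against harringtonine gave -1.34 there (adjusted p = 0.0428). For the lead ORF the direct contrast of DMDA-PatA against harringtonine gave -4.39 (adjusted p = 5.61e-15 in edgeR). After exchanging the spike-in factors of both drugs, the harringtonine value was -0.61 and passed the test (adjusted p = 0.0109), as it did without harringtonine replicate 1 (-0.93, adjusted p = 0.0151).

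2410006H16Rik hosts the box C/D small nucleolar RNAs Snord49a, Snord49b and Snord65, which guide methylation of ribosomal RNA. None of them lies in its lead ORF. That ORF had 360.7 and 416.1 normalized footprints in the control, 217.2 and 417.2 under DMDA-PatA, 891.8 and 851.8 under harringtonine and 492.2 and 950.0 under puromycin. The harringtonine libraries were both above the control, and the DMDA-PatA libraries were one below it and one level with its upper value. Harringtonine raised it by a log2 fold change of 1.17 (SE 0.44, adjusted p = 0.0101 in edgeR), a call lost without control replicate 1 (adjusted p = 0.136) or 2 (adjusted p = 0.0767). Puromycin gave 0.90 (adjusted p = 0.0508), which passed in DESeq2 (adjusted p = 0.0435), in the fit of 1 ORF per transcript (adjusted p = 0.0466), after the exchange of spike-in factors (adjusted p = 0.00322) and without puromycin replicate 1 (adjusted p = 0.0393). DMDA-PatA gave -0.29 (adjusted p = 0.511). An overlapping AUG ORF of the same RNA, at bases 84 to 191, fell under harringtonine from 181 and 340 reads to 108 and 183. Its log2 fold change was -1.13 (adjusted p = 0.0108 in edgeR), opposite to that of the lead ORF.

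1110038B12Rik hosts Snord52. Its lead ORF had 108.5 and 104.2 normalized footprints in the control, 71.3 and 104.7 under DMDA-PatA, 271.9 and 147.7 under harringtonine and 213.0 and 200.2 under puromycin. It was higher under harringtonine (log2 fold change 0.98, adjusted p = 0.0269 in edgeR) and under puromycin (0.96, adjusted p = 0.0338). The harringtonine call was lost without either control library or harringtonine replicate 1. The puromycin call was lost without either control or either puromycin library. Without a filter on low counts neither call held (adjusted p = 0.0595 and 0.0768). 1810032O08Rik, which hosts Snord1a, Snord1b and Snord1c, had 68.4 and 86.1 normalized footprints in the control and 78.9 and 103.9 under DMDA-PatA, and passed no test (log2 fold change 0.24 under DMDA-PatA, adjusted p = 0.595). Kis2 had 49.5 and 61.6 normalized footprints in the control and 51.1 and 35.7 under DMDA-PatA, also without a call.

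The RNAs that contain a small RNA gene on their strand, in an exon or an intron, numbered 17, and 8 of their lead ORFs were tested. DMDA-PatA lowered 3 of them (Cct6a, Zswim6 and Mir22hg) and raised 2, and harringtonine lowered the same 3 and raised 4. Over all rows 96.9% were lower and 0.359% higher under DMDA-PatA, and 89% and 1.1% under harringtonine. The 4 raised by harringtonine were 2410006H16Rik, 1110038B12Rik, Gm13648 and 2610307P16Rik, the last 2 with few or no control reads. The median log2 fold change of all 8 hosts under DMDA-PatA was -0.29, against -4.26 over all rows.

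Gm13648 and 2610307P16Rik were raised by DMDA-PatA, both at low counts. Both passed the filter only through DMDA-PatA and harringtonine libraries, so their rises were selected for and the tests are no independent support. Gm13648, which spans the Mir200a, Mir200b and Mir429 genes, had 2 and 2 reads in the control, 12 and 8 under DMDA-PatA, 6 and 17 under harringtonine and 1 and 4 under puromycin. The log2 fold change was 1.73 under DMDA-PatA (SE 0.87, adjusted p = 0.0486 in edgeR) and 2.12 under harringtonine (adjusted p = 0.0145). The DMDA-PatA call was lost in DESeq2 (adjusted p = 0.182), without a filter on low counts (adjusted p = 0.0746) and without either control library, and the harringtonine call in DESeq2 (adjusted p = 0.116) and without either control library. 2610307P16Rik had no read in either control library, 2 and 15 under DMDA-PatA, 14 and 9 under harringtonine and 1 and 1 under puromycin. Against a floor of 3 reads per control library it was at least 2.15-fold higher under DMDA-PatA and at least 3.28-fold higher under harringtonine (adjusted p = 0.000435 and 3.36e-05 in edgeR). The DMDA-PatA fold rested on replicate 2, since replicate 1 had 2 reads, below that floor. Over the entire RNA, the DMDA-PatA change of either did not pass the test (adjusted p = 0.0876 for Gm13648 and 0.157 for 2610307P16Rik).

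Mir22hg is the host of miR-22. Its lead ORF had 24.8 and 22.7 normalized footprints in the control, 8.21 and 6.49 under DMDA-PatA, 15.2 and 4.90 under harringtonine and 10.3 and 18.6 under puromycin. DMDA-PatA lowered it 3.23 fold (log2 fold change -1.66, adjusted p = 0.00398 in edgeR), which was lost without control replicate 1 (adjusted p = 0.0537). The harringtonine decrease (-1.30, adjusted p = 0.0256) was lost in DESeq2 (adjusted p = 0.142), without either control library and without harringtonine replicate 2. Of the lead ORF's 13 and 8 reads under DMDA-PatA, most lay before RNA base 315, near where miR-22-3p begins. The nested ORF from base 315 to the same end went from 16 and 16 control reads to 1 and 1. Its log2 fold change under DMDA-PatA was -4.33 (adjusted p = 8.83e-07 in edgeR), and the cause of this difference was not tested.

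4933407K13Rik, from the X chromosome, was raised by both harringtonine and puromycin. Its lead ORF had 4 and 4 reads in the control, 3 and 4 under DMDA-PatA, 20 and 19 under harringtonine and 12 and 10 under puromycin. It passed the filter only through the harringtonine and puromycin libraries, so the rises were selected for and the tests are no independent support. The log2 fold change was 1.97 under harringtonine (SE 0.69, adjusted p = 0.00506 in edgeR) and 2.08 under puromycin (SE 0.73, adjusted p = 0.00616), and -0.69 under DMDA-PatA (adjusted p = 0.442). Without control replicate 2 both calls were lost, and without puromycin replicate 1 the puromycin call. 4930481B07Rik had 15.3 and 14.5 normalized footprints in the control and 5.68 and 12.2 under DMDA-PatA, without a call for any drug.

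**Figure D3:**
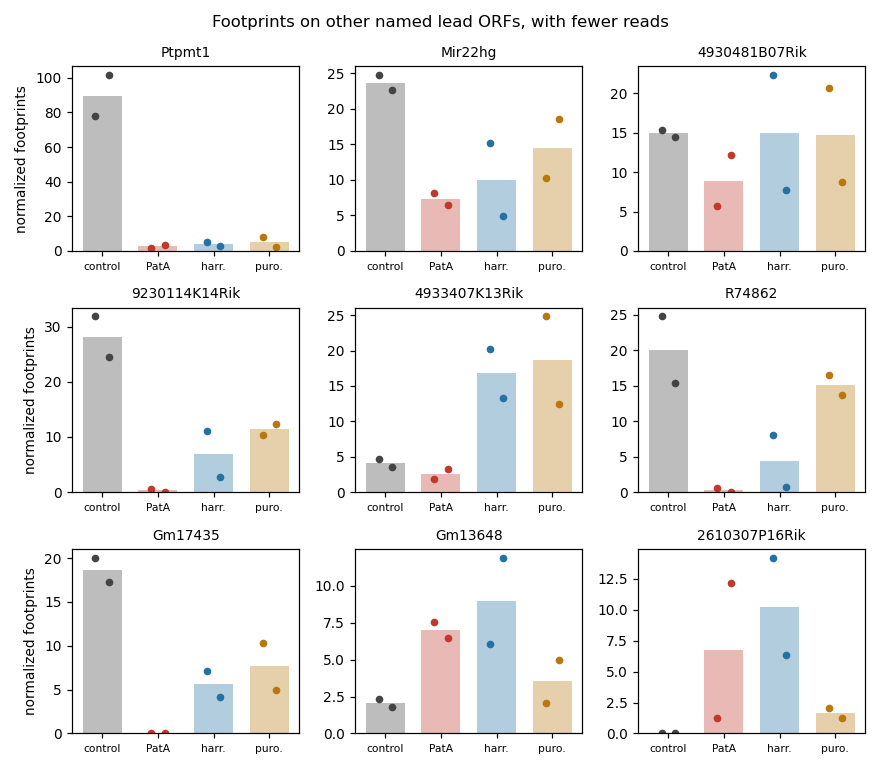
Normalized footprints (vertical axis, from 0, a scale of its own in each panel) on the 9 other named lead ORFs that were tested, with bars for the mean of 2 libraries and points for the libraries. Gm17435, 9230114K14Rik and R74862 are at or near 0 under DMDA-PatA, and Gm13648, 2610307P16Rik and 4933407K13Rik are above the control under harringtonine.

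The largest decreases under DMDA-PatA outside same-strand coding sequence were in RNAs with few reads. Gm17435, an antisense RNA, had 17 and 19 reads in the control, none under DMDA-PatA, 7 and 6 under harringtonine and 5 and 4 under puromycin. Against a floor of 3 reads per DMDA-PatA library it was at least 8.61-fold lower (adjusted p = 1.99e-09 in edgeR). 9230114K14Rik, whose ORF was not located in M21, had 27 and 27 reads in the control and 1 and 0 under DMDA-PatA, against 11 and 4 under harringtonine and 5 and 10 under puromycin. R74862 had 21 and 17 reads in the control, 1 and 0 under DMDA-PatA, 8 and 1 under harringtonine and 8 and 11 under puromycin. An exon of R74862 lies opposite the coding sequence of the tetraspanin Cd81, which DMDA-PatA lowered 74.1 fold. DMDA-PatA was lower than harringtonine in all 3 (adjusted p = 0.000727, 0.00208 and 0.026 in edgeR).

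The antisense RNAs had 10 tested lead ORFs. DMDA-PatA lowered 8 of them, with a median log2 fold change of -2.01, and harringtonine lowered 3, against 96.9% and 89% of all rows. With puromycin 1 was higher and 0 were lower in edgeR, against 0.85% and 85.2% of all rows. In edgeR 1 was lower at an unadjusted p under 0.05, and DESeq2 and limma also called 0 lower. The RNA listed under the symbol Trmt61b, antisense in M21 and lncRNA in RefSeq, had 71.9 and 62.5 normalized footprints in the control, 12.6 and 26.8 under DMDA-PatA, 54.8 and 58.8 under harringtonine and 111.7 and 167.9 under puromycin. It fell under DMDA-PatA (log2 fold change -1.78, adjusted p = 0.000237 in edgeR) and rose under puromycin (1.07, adjusted p = 0.0214), and the rise was lost without either control library or puromycin replicate 2. 1110002L01Rik had 56.6 and 55.3 normalized footprints in the control and 25.2 and 23.5 under DMDA-PatA, a log2 fold change of -1.19 (adjusted p = 0.0121 in edgeR) that was lost without control replicate 1 or 2.

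Gm16163 overlaps coding sequence on both strands, with 2 nt of its lead ORF opposite 2810004N23Rik and an exon on the coding sequence of Gnpat. Its lead ORF had 56.6 and 46.2 normalized footprints in the control, 15.8 and 51.9 under DMDA-PatA, 107.5 and 84.0 under harringtonine and 37.2 and 53.5 under puromycin. No drug passed the test against control with all libraries (adjusted p = 0.191 for DMDA-PatA and 0.0532 for harringtonine in edgeR). Without DMDA-PatA replicate 2 it was lower under DMDA-PatA (log2 fold change -1.69, adjusted p = 0.00456). The harringtonine value of 0.90 passed in the fit of 1 ORF per transcript (adjusted p = 0.047), after the exchange of spike-in factors (adjusted p = 0.0374) and without harringtonine replicate 2 (adjusted p = 0.00977). Over the entire RNA, Gm16163 was lower under DMDA-PatA (log2 fold change -1.24, adjusted p = 0.00427). ORFs nested in its lead ORF passed no test. The overlapping ORF at bases 550 to 729, with 65 and 70 control reads, fell under DMDA-PatA (-1.71, adjusted p = 0.000388 in edgeR). That at bases 654 to 824 fell under DMDA-PatA (-2.92, adjusted p = 9.04e-08) and under harringtonine (-1.32, adjusted p = 0.00786). The Gnpat coding sequence was 23.6 fold lower under DMDA-PatA and that of 2810004N23Rik 9.94 fold.

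In the direct contrast of both drugs given for 10 min, DMDA-PatA was lower than harringtonine in 20 of the 48 lead ORFs, against 47.7% of all rows, and higher in 0, against 0.594%. No lead ORF was higher at an unadjusted p under 0.05 either, nor in DESeq2 or limma. After exchanging the spike-in factors of both drugs the number lower was 11, without DMDA-PatA replicate 1 or harringtonine replicate 1 it was 6, and without control replicate 1 or 2 it was 12 and 11.

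Summed over the entire RNA, which does not depend on the ORF taken, 81 of the 286 RNAs were tested. DMDA-PatA lowered 57 and raised 1, against 98% and 0.264% of the 12874 transcripts tested. Harringtonine lowered 25 and raised 5, against 86.1% and 0.909%, and puromycin lowered 14 and raised 5, against 84.2% and 0.396%. The RNA raised by DMDA-PatA was 1110038B12Rik (log2 fold change 1.1, adjusted p = 0.00851 in edgeR), whose lead ORF held 50.4% of its footprints and gave -0.28.

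Fold inhibition, the mean control value over the mean drug value, was taken for the 67 lead ORFs with at least 10 control reads. The median was 5.03 ± 3.44 fold under DMDA-PatA (SD of the 2 replicate pairs, n = 2), 1.35 ± 0.35 under harringtonine and 1.48 ± 0.04 under puromycin. The 52 lead ORFs of lincRNAs gave 4.59, 1.71 and 1.47 fold. The 345 coding sequences under 300 nt gave 12.4, 2.10 and 1.82 fold, and all 13133 coding sequences 20.1, 7.76 and 5.58 fold. With DMDA-PatA, 38 of the 67 fell at least 4 fold and 2 were above the control. The same held for 31 and 4 of the 52 lincRNA lead ORFs and for 12850 and 6 of the 13133 coding sequences. With harringtonine and puromycin 21 and 18 of the 67 were above the control, as were 20 and 17 of the lincRNA lead ORFs and 202 and 199 of the coding sequences. These medians were not tested against each other. The 40 lead ORFs without coding overlap had medians of 3.17, 1.16 and 1.24 fold, and the 10 on same-strand coding sequence 16.3, 13.8 and 13.4 fold. The 18 antisense lead ORFs stood at 12.4 fold under DMDA-PatA but 1.27 and 1.22 fold with the other drugs. Lead ORFs that start with AUG and CUG had 4.5 and 5.13 fold under DMDA-PatA, though a CUG ORF can contain an AUG ORF.

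**Figure D4:**
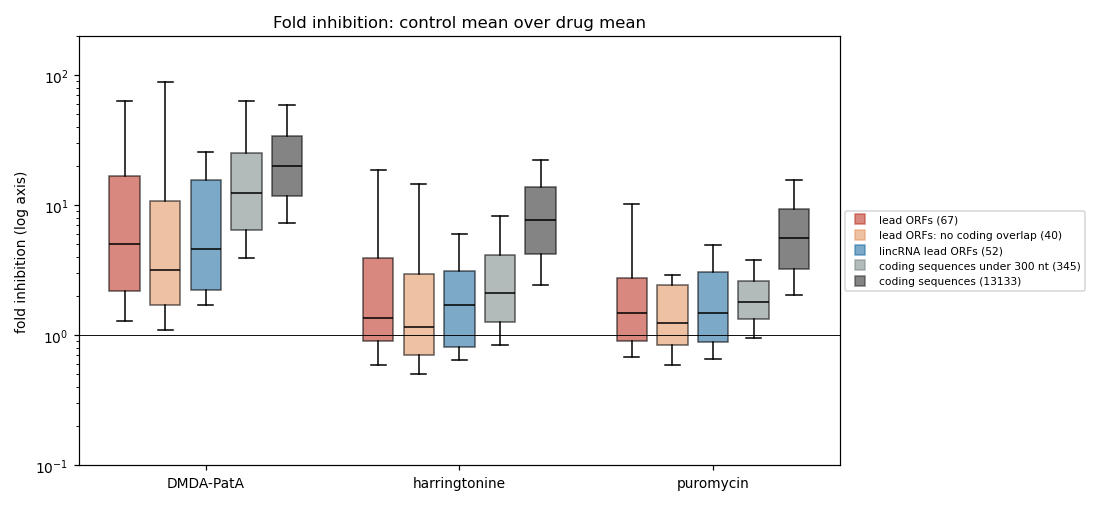
Fold inhibition (log axis) by each drug for lead ORFs, those without coding overlap, lead ORFs of lincRNAs, coding sequences under 300 nt and all coding sequences, with the number of ORFs in the legend. Boxes span the quartiles, the line is the median and the whiskers run from the 10th to the 90th percentile. The medians of the lead ORFs lie below those of all coding sequences with each drug, at 5.03 against 20.1 fold under DMDA-PatA.

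The 238 lead ORFs too low for a test summed to 419.7 and 344.5 normalized footprints in the control, 92.2 and 122.6 under DMDA-PatA, 387.6 and 257.6 under harringtonine and 268.8 and 309.6 under puromycin. The DMDA-PatA sums lay below all others. Of the well known noncoding RNAs looked for, 5 were members. Besides 2410006H16Rik and Mir22hg these were Dancr, with 13 and 2 control reads on its lead ORF and 2 and 2 under DMDA-PatA, the imprinted small RNA host Rian with 12 reads in the 8 libraries and Dleu2, the host of miR-15a and miR-16, with 1.

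Footprints per transcriptome read, the share of footprints over the share of transcriptome reads on coding sequences, could be given for 98 lead ORFs with at least 10 reads in each transcriptome library. The median was 0.40 and 0.44 in the replicates, against 0.88 and 0.87 for 13410 coding sequences and 1.83 and 1.79 for 327 coding sequences under 300 nt. In both replicates 22 lead ORFs were below 0.1 and 18 above 1. 1110038B12Rik stood at 4.44 and 6.88, Kis2 at 3.85 and 4.28, 2010204K13Rik at 3.53 and 2.55 and 2410006H16Rik at 3.38 and 2.96, all above Cct6a at 1.74 and 1.52. Mir22hg was at 0.20 and 0.16, and 2610307P16Rik at 0 in both. Per length, the control footprints of 2410006H16Rik were 256.9 and 330.5 on the same per kb scale and those of Ifi30 142.4 and 172.1.

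The 18 tested lead ORFs with AUG included 9 with a purine at the third base before it and 13 with G right after it, the bases known to favour initiation, and 6 had both. Of all 113 located lead ORFs with AUG these numbers were 60, 47 and 22. DMDA-PatA lowered 13 of the 18 tested ORFs with AUG and 16 of the 28 with CUG, both below the 96.9% of all rows. The start codons were not tested against each other. A lead ORF with CUG can contain an AUG ORF of the same end, so the groups do not separate the start codons used. In 2010204K13Rik the lead ORF with CUG had 606 and 704 control reads, and the AUG ORF nested in it 601 and 697.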

How the data were processed

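Members and gene lists were chosen with earlier results of these data known. The authors aligned SOLiD reads in color space to mm10 with LifeScope, dropped any read that matched more than 1 place, and assigned the rest to listed ORFs of 1 transcript per gene. They deposited signal values, scaled by DESeq2 size factors to equal spike-in in ribosome profiling and to each other in the transcriptome. Whether counting used strand is not given in the sources used here. The submitters' processing notes also name Picard 1.38. Dividing each library's values by its smallest positive value gave whole numbers for all of them (within 0.02), which were taken as reads. Because the deposited unit is not a count, limma on log2(value + 1) was added as an alternative to the planned count test, after the data were seen.

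Gene types, exons and sequences came from GENCODE M21 (195 listed transcripts were not in it), coding sequence and biotypes also from RefSeq. ORFs with a copy of at least 30 nt at 95% identity elsewhere were counted with blastn 2.17.0 (12 lead ORFs, Cct6a and Zswim6 among them). edgeR 4.0.16 (quasi-likelihood test, R 4.3.3, 4 groups in one fit, Benjamini-Hochberg over all 14472 rows) was the main test, with limma 3.58.1 and DESeq2 1.42.0 as alternatives. The fit was tested on simulated counts first. Python 3.11.15, numpy 2.4.6, pandas 2.3.3 and matplotlib 3.10.9 did the rest. The 2 libraries per group limit the precision. Of the other alternatives, scaling, filters, the replicate block, single libraries left out, the ORF taken and subsets of members were tried.

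Named RNAs were the 12 with the most reads on the lead ORF, the 5 with the largest and the 5 with the smallest decrease or largest increase under DMDA-PatA that moved alike in both replicate pairs, up to 3 called higher per drug, and members of a list of well known noncoding RNAs.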

Additional observations from a re-analysis of the deposited data

How the results depend on the processing

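Directions depended on the spike-in scale and counts on the control libraries. Alternatives with limma and without same-strand coding sequence were chosen after seeing the data. Counts that moved by over 1.5 times are given here. With TMM normalization, member ORFs called lower numbered 4 under DMDA-PatA, 63 under harringtonine, 49 under puromycin and 9 in the contrast of DMDA-PatA to harringtonine, and member ORFs called higher numbered 104 under DMDA-PatA, 124 under harringtonine, 102 under puromycin and 29 in the contrast of DMDA-PatA to harringtonine, and lead ORFs called lower numbered 1 under DMDA-PatA, 6 under harringtonine, 4 under puromycin and 3 in the contrast of DMDA-PatA to harringtonine, and lead ORFs called higher numbered 29 under DMDA-PatA, 33 under harringtonine, 32 under puromycin and 6 in the contrast of DMDA-PatA to harringtonine. With DESeq2, member ORFs called lower numbered 36 in the contrast of DMDA-PatA to harringtonine, and member ORFs called higher numbered 4 under DMDA-PatA and 8 under harringtonine, and lead ORFs called lower numbered 10 in the contrast of DMDA-PatA to harringtonine, and lead ORFs called higher numbered 1 under DMDA-PatA. With limma, member ORFs called higher numbered 10 under puromycin. Without a filter on low counts, member ORFs called lower numbered 478 under DMDA-PatA, and lead ORFs called lower numbered 56 under DMDA-PatA, and lead ORFs called higher numbered 1 under DMDA-PatA. With the replicate block, lead ORFs called higher numbered 1 under DMDA-PatA. With the spike-in factors of DMDA-PatA and harringtonine exchanged, member ORFs called higher numbered 3 in the contrast of DMDA-PatA to harringtonine, and lead ORFs called lower numbered 11 in the contrast of DMDA-PatA to harringtonine. With the longest ORF as lead, lead ORFs called lower numbered 11 in the contrast of DMDA-PatA to harringtonine, and lead ORFs called higher numbered 1 under DMDA-PatA, 2 under harringtonine and 1 under puromycin. Among RNAs without coding overlap, member ORFs called lower numbered 136 under DMDA-PatA, 120 under harringtonine and 101 under puromycin. In the contrast of DMDA-PatA to harringtonine they numbered 42. Many of those lower with each drug were nested ORFs of 1 RNA, Ptprv, which also count below without same-strand coding sequence. The Ptprv lead ORF of 2592 nt had log2 fold changes of -3.64, -4.57 and -3.17. Lead ORFs without coding overlap called lower numbered 16 under DMDA-PatA, 9 under harringtonine, 5 under puromycin and 12 in that contrast. Among ORFs that start with AUG, member ORFs called lower numbered 69 under DMDA-PatA, 60 under harringtonine, 49 under puromycin and 23 in the contrast of DMDA-PatA to harringtonine, and member ORFs called higher numbered 3 under DMDA-PatA, 7 under harringtonine and 3 under puromycin, and lead ORFs called lower numbered 13 under DMDA-PatA, 10 under harringtonine, 8 under puromycin and 8 in the contrast of DMDA-PatA to harringtonine, and lead ORFs called higher numbered 0 under DMDA-PatA, 1 under harringtonine and 0 under puromycin. Without same-strand coding sequence, member ORFs called lower numbered 157 under DMDA-PatA, 130 under harringtonine and 102 under puromycin, and lead ORFs called lower numbered 12 under harringtonine and 5 under puromycin. Leaving out 1 library at a time gave 92 to 276 under DMDA-PatA, 64 to 252 under harringtonine, 53 to 217 under puromycin and 17 to 83 in the contrast of DMDA-PatA to harringtonine for member ORFs called lower. Leaving out 1 library at a time gave 4 to 10 under DMDA-PatA, 4 to 20 under harringtonine, 0 to 10 under puromycin and 0 to 4 in the contrast of DMDA-PatA to harringtonine for member ORFs called higher. Leaving out 1 library at a time gave 16 to 32 under DMDA-PatA, 10 to 23 under harringtonine, 6 to 17 under puromycin and 6 to 26 in the contrast of DMDA-PatA to harringtonine for lead ORFs called lower. Leaving out 1 library at a time gave 1 to 2 under DMDA-PatA, 1 to 7 under harringtonine, 0 to 4 under puromycin and 0 to 0 in the contrast of DMDA-PatA to harringtonine for lead ORFs called higher. The median fold inhibition under DMDA-PatA was 9.337 in replicate pair 1 alone. Under harringtonine it was 2.35 with at least 20 control reads, 1.943 in replicate pair 2 alone, 1.727 for the longest ORF and 1.862 for AUG. Under puromycin it was 1.423 over the entire RNA, 1.724 for the longest ORF, 1.24 without coding overlap, 1.736 for AUG and 1.263 without same-strand coding sequence. With TMM normalization 31 of the 63 log2 fold changes of named lead ORFs changed sign, under DMDA-PatA 2410006H16Rik (3.86), Ifi30 (1.97), Zswim6 (0.141), 1110038B12Rik (3.92), Trmt61b (2.39), Gm16163 (3.51), Kis2 (3.9), 1110002L01Rik (3.04), 4933407K13Rik (3.39), 4930481B07Rik (3.39) and Mir22hg (2.55), under harringtonine Ifi30 (1.17), 2010204K13Rik (2.62), Trmt61b (2.78), Kis2 (2.71), 1110002L01Rik (2.75), Gm17435 (1.2), 9230114K14Rik (0.822), R74862 (0.587), 4930481B07Rik (2.84) and Mir22hg (1.6), under puromycin Ifi30 (0.113), 2010204K13Rik (0.956), 1810032O08Rik (2.11), Gm16163 (2.36), Kis2 (2.44), 1110002L01Rik (1.67), 9230114K14Rik (1.22), R74862 (2.07), 4930481B07Rik (2.32) and Mir22hg (1.85). Only sign changes with an adjusted p under 0.05 in the spike-in fit or in the TMM fit are counted among the 31. The cause of these shifts was not tested. Same-numbered libraries correlated in their deviations from the group means by -0.0289 to 0.139 over 8018 rows, so the numbers were not taken as pairs, and the replicate block left 60 of the 63 calls on the same side of the threshold. The other 3 were 1110038B12Rik (adjusted p = 0.0535) and 9230114K14Rik (adjusted p = 0.0833) under puromycin and Gm13648 (adjusted p = 0.0759) under DMDA-PatA. Depth limits the 238 lead ORFs below the filter, with a median of 6 reads on all 286.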
